A study of Mus musculus with 16 samples.

Results

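The set described here is the 151 abundant long noncoding RNA genes of the mouse cortex, out of 9954 annotated long noncoding RNA genes and 55487 genes in all. A gene belonged to it when its annotated type was lncRNA, lincRNA, antisense, sense_intronic, sense_overlapping, processed_transcript or bidirectional_promoter_lncRNA and its mean level over the 16 samples was at least 10 CPM (the reads of a gene, scaled so that all libraries have the same total). The members were thus chosen by their measured level, and their abundance is given below as a description. The study asked whether the time of day (TOD) of an inflammatory stimulus changes the response of the brain. Wild-type male C57BL/6J mice aged 2 months, described as littermates, were injected i.p. with 2 mg/kg lipopolysaccharide (LPS, a bacterial cell wall component) or with PBS on 2 consecutive days, either at zeitgeber time 1 (ZT1, early in the light phase) or at ZT13 (early in the dark phase), and the cortex was taken on the third day. Total RNA was depleted of ribosomal RNA with the KAPA RiboErase kit and sequenced in bulk, so transcripts without a poly(A) tail, such as many nuclear RNAs, were retained. The groups were ZT1 PBS (3 mice), ZT1 LPS (5), ZT13 PBS (3) and ZT13 LPS (5), all of the same genotype, sex and age. Groups follow the sample titles, because the separate treatment field contradicted them in 12 of the 16 samples. *Gfap*, the astrocyte filament gene that rises in inflamed brain, lay between 111 and 123 CPM in the 6 samples titled PBS and between 572 and 1134 CPM in the 10 titled LPS. The titles number the mice, and which litter each came from was not given, so p-values measure the spread between these samples.

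Long noncoding RNAs are transcripts that are not translated into a conserved protein. Some build nuclear bodies or hold protein complexes on chromatin, some are the precursors from which microRNAs or small nucleolar RNAs (snoRNAs) are cut, and some act in silencing imprinted genes or the X chromosome. The brain expresses many of them, often in a neuron-specific or glia-specific way.

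The 151 members were 1.52% of the candidate genes but held 84.6% of the candidates' summed CPM. They took between 2.48% and 3.01% of all gene-assigned reads per library, with a median of 2.68%. By group, that share was 2.50, 2.62 and 2.64% in ZT1 PBS, 2.90, 2.70, 2.72, 2.77 and 2.65% in ZT1 LPS, 2.49, 2.48 and 2.56% in ZT13 PBS and 3.01, 2.87, 2.62, 2.91 and 2.87% in ZT13 LPS mice. All LPS libraries of a time were above all PBS libraries of that time, with *Malat1* and *Meg3* included. Without this pair of genes the LPS and PBS libraries overlapped at both times, the members summing to 9675 to 10081 CPM in ZT1 PBS, 9758 to 10556 in ZT1 LPS, 9615 to 9813 in ZT13 PBS and 9614 to 11197 in ZT13 LPS mice. *Malat1* alone held 45.6% of the members' summed CPM and *Meg3* 16.98%, and the 10 most abundant members together 83.0%. The order by mean CPM was *Malat1* (12341), *Meg3* (4595), *2900097C17Rik* (1428), *Cdr1os* (1002), *Snhg14* (832), *Rian* (661), *Miat* (593), *Kcnq1ot1* (357), *Oip5os1* (352) and *Peg13* (314). In all, 19 members reached 100 CPM on average and 81 stayed under 20. Divided by the length of the annotated exons, *Malat1* was again highest at 1767 CPM per kb, but the short transcripts *Bc1* (915) and *Rmrp* (439) came next, before *2900097C17Rik* (290.5) and *Meg3* (254). The long transcripts went the other way: *Kcnq1ot1* had 3.84 CPM per kb (rank 94) and *Neat1* had 6.96 (rank 61). The plot of level against level per length shows all members on both scales.

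**Figure D1:**
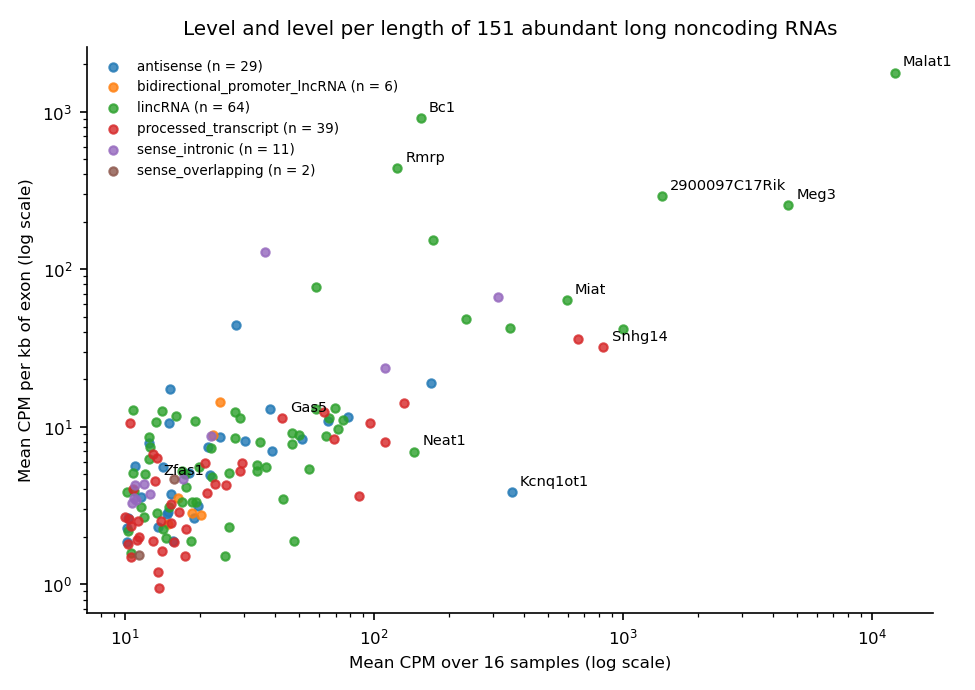
Mean CPM over the 16 samples (x, log scale) against mean CPM per kb of annotated exon (y, log scale) for the 151 members, coloured by annotated type. *Malat1* lies highest on both axes, at 12341 CPM and 1767 CPM per kb.

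At the entry level of 10 CPM, the nearest members were *Gm41609* (10.01), *Gm4673* (10.1) and *4933423P22Rik* (10.2), and the nearest candidates below it *Lncppara* (9.94), *4930480K15Rik* (9.93) and *AW011738* (9.86). A level of 10 CPM stood for 203 to 291 reads in these libraries. Reads are PCR copies without molecular identifiers, so the read number bounds the counting error only. Below 10 CPM on average in both PBS groups were 8 members: *Zfas1*, *AI506816*, *Ifi30*, *Gm15624*, *4933423P22Rik* and *Gm4673*, together with *2610035D17Rik* and *4932422M17Rik*, which were named after their values were seen. These 8 entered the set through their LPS samples and had to be higher there, so their direction carries no weight. The converse held for *Gm1604a*, which was below 10 CPM on average in both LPS groups. By annotated type, the members were 64 lincRNA, 39 processed_transcript, 29 antisense, 11 sense_intronic, 6 bidirectional_promoter_lncRNA and 2 sense_overlapping genes. Of the 151, 147 have the same type in the GENCODE M21 annotation, and of the 95 found in RefSeq, 3 (*Ifi30*, *Trerf1* and *Dbpht2*) are protein-coding there. *Trerf1* is given by name because the count is small, after its values were seen. Another gene overlapped 111 members, 80 of them by exon, and 40 members stood clear of other genes. Whether strand was used in counting was not given in the sources used here, so reads of overlapping genes cannot be told apart, and values of overlapped members are uncertain to that extent.

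A pair of libraries stood apart before any comparison: misc_RNA genes, mostly the signal recognition particle RNA, took 5.31% of reads in ZT13 LPS replicate 1 and 6.01% in ZT13 PBS replicate 3, against 6.86% to 8.33% in the other 14. Without this pair, 35 members were called at ZT13 between LPS and PBS (25 higher, 10 lower), against 52 (39 higher, 13 lower) with it, a setting chosen after seeing the data.

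The first comparison was LPS against PBS at each time. At ZT1, 10 of the 151 members rose after LPS and 9 fell at a limma adjusted p under 0.05, that is 19 members or 12.6%, while 16.2% of the 18859 tested genes were called (11.1% higher, 5.15% lower). At ZT13, 39 rose and 13 fell, that is 52 members or 34.4%, beside 28.6% of all tested genes (19.2% higher, 9.40% lower). The median log2 fold change of the members was 0.01 at ZT1 and 0.06 at ZT13, next to 0.04 and 0.05 over all tested genes. At ZT13 the called share of the members was above that of all genes, by little with the low filter set at 5 CPM (35.8% against 35.0%) and without the pair of libraries low in misc_RNA (23.2% against 21.9%). At ZT1 it was below, but above without ZT1 LPS replicate 5 (20.53% against 19.93%), under quantile normalization (17.9% against 15.5%) and with every gene that had any reads in the fit (5.30% against 4.16%), and neither difference was tested. Of the 8 members that entered through their LPS samples, 4 are among the 10 that rose at ZT1 and 7 among the 39 at ZT13. Without these 8 and *Gm1604a*, the other 142 gave 6 rises and 8 falls at ZT1 (9.86%) and 32 rises and 13 falls at ZT13 (31.7%). The exclusion went by the means of both groups of a treatment, so members close to the entry level, such as *Snhg12*, remain among the 142. In bulk cortex, fewer cells of a type and less RNA per cell cannot be told apart, so each change below may be either. Called at both times were 12 members, of which 10 rose at both and 2 (*Dbpht2* and *B230209E15Rik*) fell at both. The 10 are those that rose at ZT1, so 4 of them entered through their LPS samples. A further 7 were called at ZT1 alone and 40 at ZT13 alone, and 92 at neither time. Matching counts over all tested genes are not given, so these numbers only describe the members. Being called at 1 time alone does not show a difference between the times, and the direct test of that difference called 0 members, as given under the time-of-day comparisons. Most responses were small: 14 of the 19 calls at ZT1 and 44 of the 52 at ZT13 were under 0.5 on the log2 scale in either direction, and 2 and 4 were over 1. The balance of higher to lower members moved with the scaling of the libraries. At ZT1 the split of 10 to 9 became 7 to 16 under median-of-ratios scaling, 9 to 18 under quantile normalization and 10 to 10 when scaled to the protein-coding total. At ZT13 the split of 39 to 13 became 31 to 21, 23 to 29 and 41 to 13 under the same scalings. The median of all genes moved from 0.05 to -0.06 at ZT13 under quantile normalization. Among the called members the direction was kept under all 3 scalings by 18 of 19 at ZT1 and 51 of 52 at ZT13, *Malat1* being the exception at both times. Its change was flat under quantile normalization, which gives equal ranks equal values and so says little about its direction. Fewer calls were kept under all 3 scalings: 16 of 19 at ZT1 and 34 of 52 at ZT13. Leaving out single mice moved the ZT1 count: 12, 8 and 9 members were called without ZT1 PBS replicate 1, 2 and 3, and 31 without ZT1 LPS replicate 5. In each title-based setting with all mice, and without each mouse in turn, 6 of the 19 ZT1 calls were kept (*Neat1*, *Gas5*, *Gm43305*, *6530402F18Rik*, *AI506816* and *Ifi30*), and 24 of the 52 at ZT13. *AI506816* and *Ifi30* entered through their LPS samples, and both are also among the 24, as is *Zfas1*, which entered in the same way. Their kept calls carry no weight. The share of kept calls over all tested genes is not given. Beside single members, lost and gained calls are given for leaving out mice and for changes of filter, scaling, fit, weights and trend, with the adjusted p of limma in parentheses.

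**Figure D2:**
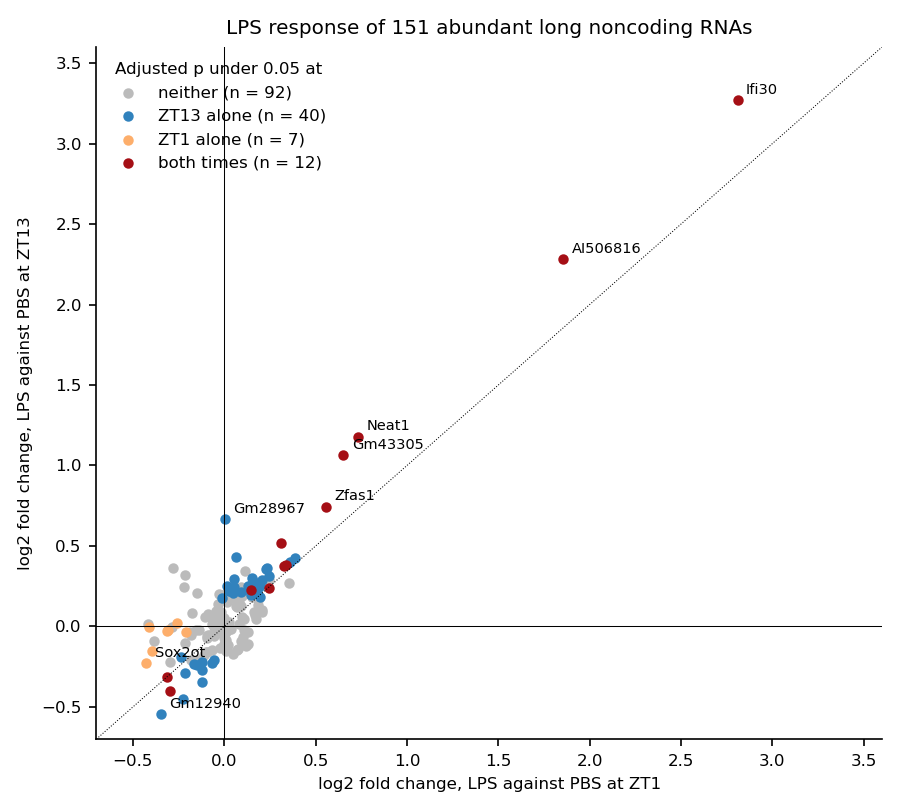
Log2 fold change of LPS against PBS at ZT1 (x) and at ZT13 (y) for each of the 151 members, with colours for members called at neither time (92), at ZT13 alone (40), at ZT1 alone (7) and at both (12). *Ifi30* and *AI506816* lie farthest to the upper right, followed by *Neat1*, and the points called at neither time crowd around 0.

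The calls by annotated type, and those of each group of genes below, stand beside 11.1% higher and 5.15% lower of all tested genes at ZT1 and 19.2% and 9.40% at ZT13. Of the 64 lincRNAs, 4 rose and 2 fell at ZT1, and 24 rose and 6 fell at ZT13, where their median log2 fold change was 0.17. The 29 antisense genes gave 1 rise and 2 falls at ZT1 and 5 rises and 3 falls at ZT13, with a median of 0.01 there. For the 39 processed transcripts the numbers were 5 and 3 at ZT1 and 8 and 3 at ZT13, with a median of 0.02. Members clear of other genes (40) included 5 that rose and 1 that fell at ZT1, and 16 that rose and 4 that fell at ZT13 (median 0.17), and the 111 overlapped members 5 and 8 at ZT1 and 23 and 9 at ZT13 (median 0.02). At ZT13, 8 of the 19 members of at least 100 CPM rose, 2 fell and 9 were uncalled, and of the 81 members under 20 CPM, 14 rose, 6 fell and 61 were uncalled. None of these differences between subsets was tested.

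The clearest response among the well-known members was that of *Neat1* (chr19:5824708-5845478, minus strand), the RNA on which paraspeckles are built. It stood at 90.8, 101 and 88.2 CPM in the 3 ZT1 PBS mice, 189, 165, 146, 149.7 and 132 in the 5 ZT1 LPS mice, 85.4, 83.0 and 91.7 in the 3 ZT13 PBS mice and 179, 195, 176, 199 and 242 in the 5 ZT13 LPS mice. Every LPS mouse was above every PBS mouse of its time, and the highest value of the whole series was ZT13 LPS replicate 5. The group means rose from 93.3 ± 6.63 to 156 ± 21.6 CPM (SD, n = 3 and 5) at ZT1 and from 86.7 ± 4.46 to 198 ± 26.3 at ZT13, log2 fold changes of 0.73 (SE 0.10, limma adjusted p = 0.00042) and 1.18 (SE 0.08, adjusted p = 1.3e-07). Both calls held in all settings that used the titles, leave-one-out included. *Malat1* (chr19:5795690-5802672, minus strand), a resident of nuclear speckles and a close neighbour of *Neat1*, changed far less. Its levels were 10978, 11792 and 11801 CPM in the 3 ZT1 PBS mice, 13407, 12899, 12529, 12645 and 12362 in the 5 ZT1 LPS mice, 10969, 11085 and 11477 in the 3 ZT13 PBS mice and 13646, 12989, 12084, 13412 and 13383 in the 5 ZT13 LPS mice. The groups did not overlap at either time, yet the lowest LPS mouse was close to the highest PBS mouse. The log2 fold change was 0.15 (SE 0.04, limma adjusted p = 0.030) at ZT1 and 0.23 (SE 0.04, adjusted p = 0.0012) at ZT13. Under quantile normalization its change was 0.00 at both times, uncalled. The ZT1 call was also lost without ZT1 PBS replicate 1, 2 or 3 (0.16, 0.065 and 0.070), without ZT1 LPS replicate 3 or 4 (0.052 and 0.054), with every gene that had any reads in the fit (0.33), under median-of-ratios scaling (0.21) and without the intensity trend (0.11), and the ZT13 call with every gene that had any reads in the fit (0.062). *Miat*, a neuron-enriched nuclear RNA that forms its own speckle-like domain, was called at ZT13 alone. It measured 565, 575 and 546 CPM in the 3 ZT1 PBS mice, 651, 559, 592, 589 and 534 in the 5 ZT1 LPS mice, 518, 522 and 558 in the 3 ZT13 PBS mice and 676, 689.6, 574, 654 and 684 in the 5 ZT13 LPS mice. The ZT13 groups were separate, whereas the ZT1 groups overlapped. *Miat* rose at ZT13 by 0.30 (SE 0.05, limma adjusted p = 0.00083), and at ZT1 its change was 0.06 (SE 0.06, adjusted p = 0.56), uncalled.

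Of the 3 nuclear body RNAs on the list, all tested, 3 of them among the 151, 2 rose (*Neat1* and *Malat1*) at ZT1, and 3 rose (*Neat1*, *Malat1* and *Miat*) at ZT13. Their medians were 0.15 at ZT1 and 0.30 at ZT13. The proteins of the same bodies were listed too. Of the 14 paraspeckle proteins on the list, all tested, 1 rose (*Hnrnpk*) at ZT1, and 1 rose (*Cpsf6*) and 1 fell (*Hnrnpa1*) at ZT13. The medians were 0.03 at ZT1 and 0.04 at ZT13, close to all genes. Of the 10 nuclear speckle proteins on the list, all tested, 1 rose (*Sf3b1*) at ZT1, and 4 rose (*Son*, *Sf3b1*, *Srrm1* and *Srrm2*) and 1 fell (*Srsf3*) at ZT13. Here the medians were 0.09 at ZT1 and 0.11 at ZT13. *Son* and *Srrm2*, large scaffold proteins at the core of speckles, rose by 0.11 and 0.21 at ZT13, and *Hnrnpk*, needed for paraspeckle assembly, by 0.19 at ZT1 (limma adjusted p = 0.012, 0.00067 and 0.0046). *Sfpq* and *Nono*, which bind *Neat1* directly, were uncalled, at -0.04 and 0.13 at ZT1 and 0.04 and 0.11 at ZT13.

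**Figure D3:**
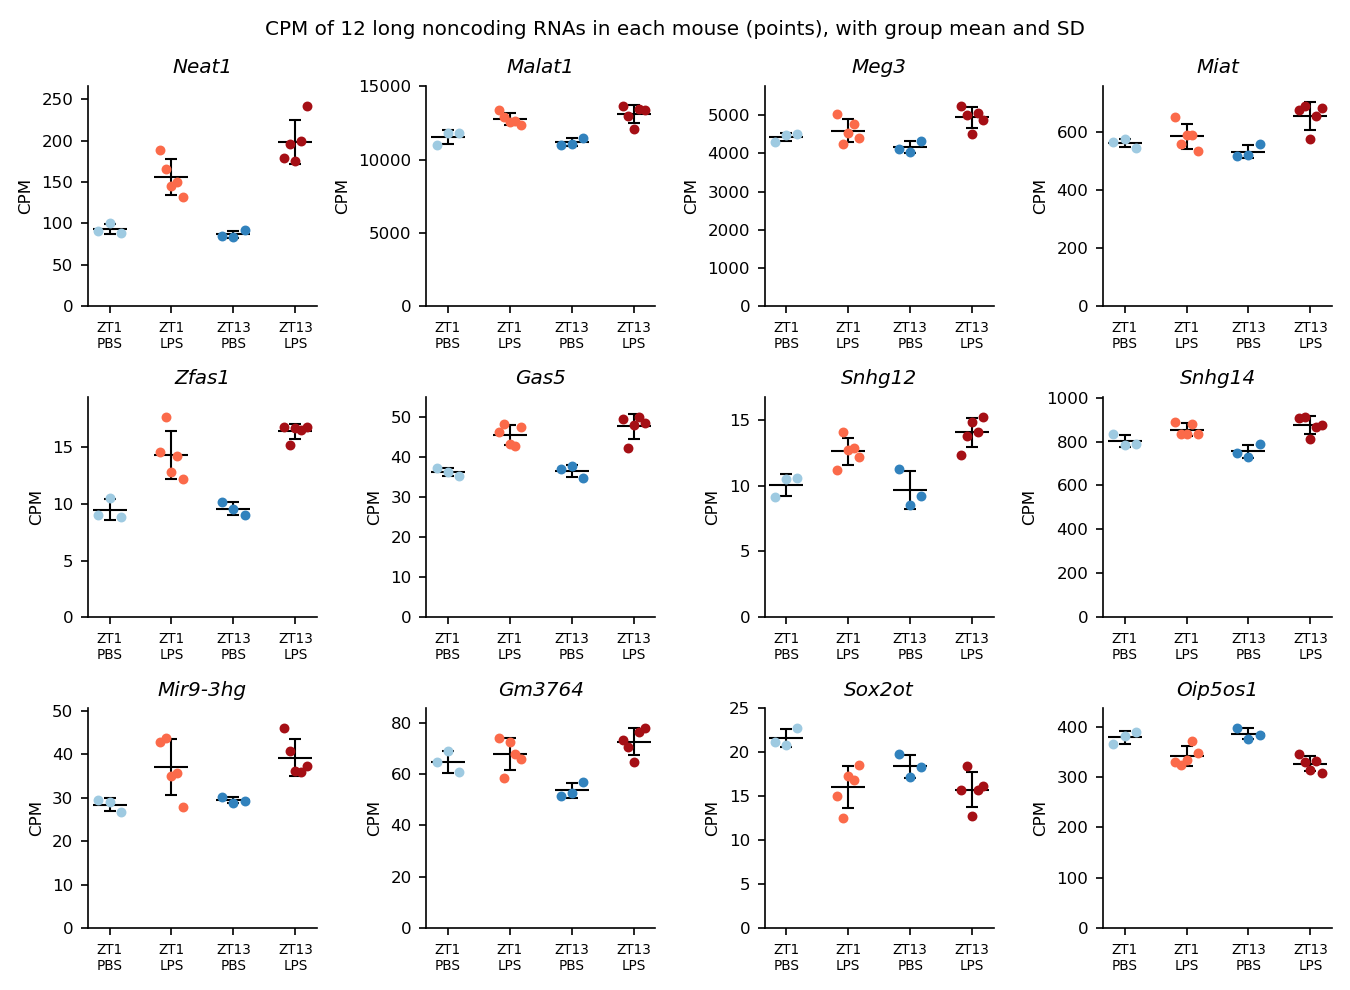
CPM of 12 members in each mouse (points) by group, with the group mean and SD (bars); each axis starts at 0. *Neat1*, *Zfas1* and *Gas5* were higher in every LPS mouse than in any PBS mouse of the same time, *Oip5os1* was lower in every ZT13 LPS mouse, and *Sox2ot* in every ZT1 LPS mouse.

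The imprinted members are expressed from 1 parental chromosome and are among the most abundant noncoding RNAs of neurons. 4 of them, *Meg3* (chr12:109541001-109571726), *Rian* (chr12:109603940-109661716), *B830012L14Rik* (chr12:109695586-109702587) and *Mirg* (chr12:109729764-109749460), follow each other on the plus strand of the Dlk1-Dio3 domain and *Meg3*, *Rian* and *Mirg* are maternally expressed. *Meg3* measured 4311, 4483 and 4508 CPM in the 3 ZT1 PBS mice, 5030.0, 4246, 4538, 4775 and 4410.2 in the 5 ZT1 LPS mice, 4116, 4050.1 and 4339.5 in the 3 ZT13 PBS mice and 5242, 5019.9, 4519.9, 5067 and 4871 in the 5 ZT13 LPS mice. At ZT13 the groups were separate, and at ZT1 they overlapped, with LPS replicate 2 below all PBS mice. *Meg3* rose at ZT13 by 0.25 (SE 0.05, limma adjusted p = 0.0010), a call lost under quantile normalization (0.08, adjusted p = 0.19), and its ZT1 change was 0.05 (uncalled). *Mirg*, the microRNA-rich end of the domain, rose at ZT13 from 56.3 ± 3.94 to 67.0 ± 4.42 CPM, a log2 fold change of 0.25 (SE 0.06, adjusted p = 0.0060) with overlapping groups, a call lost with every gene that had any reads in the fit (0.060). The middle of the domain did not pass the test: *Rian*, which hosts box C/D snoRNAs, ranged from 591 to 725 CPM with changes of -0.06 and -0.06, and *B830012L14Rik* from 52.4 to 70.0 with 0.12 and 0.20. At ZT13 *Rian* passed under median-of-ratios scaling (0.025) as lower, and *B830012L14Rik* passed as higher without ZT13 LPS replicate 5 (0.010) and with sample quality weights (0.044).

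The paternally expressed coding genes of that domain are *Dlk1*, *Rtl1* and *Dio3*, with mean levels of 9.37, 86.5 and 2.98 CPM. Of the 3 protein-coding genes of the Dlk1-Dio3 domain on the list, all tested, limma called 0 at ZT1 (0 at an unadjusted p under 0.05), and limma called 0 at ZT13 (2 at an unadjusted p under 0.05). Their medians were -0.16 at ZT1 and 0.16 at ZT13. Among the other imprinted members, *Snhg14* (chr7:59307924-59975759, minus strand) is the long neuronal transcript of the Prader-Willi/Angelman region, whose end runs antisense to *Ube3a*. Its levels were 832, 785 and 791 CPM in the 3 ZT1 PBS mice, 888, 834, 833, 882 and 833 in the 5 ZT1 LPS mice, 747, 730.4 and 788 in the 3 ZT13 PBS mice and 909, 912, 811, 868 and 877 in the 5 ZT13 LPS mice. The groups did not overlap at either time, though at ZT1 the lowest LPS mouse and the highest PBS mouse were nearly equal. *Snhg14* rose at ZT13 by 0.21 (SE 0.04, limma adjusted p = 0.0014) and stood at 0.09 (SE 0.04, adjusted p = 0.13) at ZT1, uncalled except under quantile normalization (0.0074), while *Ube3a*, which overlaps it on the opposite strand, was uncalled at 0.06 and 0.00. *Kcnq1ot1*, which silences its imprinted neighbours in cis, ranged from 309 to 379 CPM, with changes of -0.04 and 0.04, both uncalled. *Peg13* lay between 283 and 336 CPM and was uncalled as well (-0.01 and 0.05), except under quantile normalization (0.016) at ZT13. Of the 9 tested genes among the 10 listed as imprinted noncoding RNAs, 7 of them among the 151, 1 rose (*H19*) at ZT1, and 4 rose (*H19*, *Meg3*, *Mirg* and *Snhg14*) at ZT13. The medians were 0.05 at ZT1 and 0.20 at ZT13. *H19* was far below the abundant members, at 0.472 and 0.318 CPM in PBS and 1.33 and 1.76 CPM in LPS mice at ZT1 and ZT13. At such levels it needed LPS mice to reach 1 CPM in 3 samples, the low filter of the test. Its direction therefore carries no weight.

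The snoRNA host genes release snoRNAs from their introns, and their spliced remainders are commonly cleared by nonsense-mediated decay. *Zfas1* (chr2:167062934-167065862), *Gas5* (chr1:161034422-161038539) and *Snhg12* (chr4:132308623-132311024) contain 3, 10 and 5 annotated snoRNA genes, and all 3 rose after LPS at both times. *Zfas1* entered the set through its LPS samples, so its direction carries no weight. *Snhg12* had PBS mice on both sides of 10 CPM, so its direction carries little. *Zfas1* measured 9.07, 10.6 and 8.88 CPM in the 3 ZT1 PBS mice, 14.6, 17.7, 12.8, 14.2 and 12.2 in the 5 ZT1 LPS mice, 10.2, 9.57 and 9.05 in the 3 ZT13 PBS mice and 16.8, 15.3, 16.7, 16.5 and 16.8 in the 5 ZT13 LPS mice. The LPS mice were above the PBS mice throughout, and ZT13 LPS replicate 2 was the lowest of its group. The log2 fold change was 0.56 (SE 0.11, limma adjusted p = 0.0070) at ZT1 and 0.74 (SE 0.07, adjusted p = 2.2e-06) at ZT13, and only the ZT1 call was lost, with every gene that had any reads in the fit (0.059). *Zfas1* lies across from *Znfx1* on the opposite strand, which rose too, by 0.26 and 0.26. *Gas5*, a growth-arrest transcript that can bind the glucocorticoid receptor, stood at 37.2, 36.2 and 35.2 CPM in the 3 ZT1 PBS mice, 46.1, 48.2, 43.1, 42.6 and 47.4 in the 5 ZT1 LPS mice, 37.0, 37.6 and 34.8 in the 3 ZT13 PBS mice and 49.4, 42.1, 47.8, 49.9 and 48.4 in the 5 ZT13 LPS mice. No LPS mouse fell into the PBS range of its time. It rose by 0.32 (SE 0.06, limma adjusted p = 0.0024) at ZT1 and 0.38 (SE 0.06, adjusted p = 0.00024) at ZT13, calls that held in every title-based setting. The gene on its other strand, *Zbtb37*, went in the other direction, at -0.14 (uncalled) and -0.19 (adjusted p = 0.012). *Snhg12* measured 9.11, 10.5 and 10.5 CPM in the 3 ZT1 PBS mice, 11.2, 14.05, 12.7, 12.9 and 12.1 in the 5 ZT1 LPS mice, 11.3, 8.56 and 9.21 in the 3 ZT13 PBS mice and 12.4, 13.8, 14.9, 14.1 and 15.2 in the 5 ZT13 LPS mice. Its groups did not overlap at either time. The rise was 0.31 (SE 0.09, limma adjusted p = 0.035) at ZT1 and 0.52 (SE 0.10, adjusted p = 0.00095) at ZT13. At ZT1 the call was lost without ZT1 PBS replicate 1, 2 or 3 (0.15, 0.071 and 0.069), without ZT1 LPS replicate 3 or 4 (0.069 and 0.069), with every gene that had any reads in the fit (0.090), under median-of-ratios scaling (0.073) and under quantile normalization (0.20).

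The remaining snoRNA hosts were *Snhg14* and *Rian* (208 and 13 snoRNA genes), *Snhg17* (3), *Snhg20* (1) and *AI506816* (1). *Snhg17* ranged from 9.07 to 11.7 CPM with changes of -0.03 and 0.20, and *Snhg20* from 9.18 to 13.9 CPM with 0.10 and 0.23, all uncalled. At ZT13 *Snhg17* passed with every gene that had any reads in the fit (0.040), when scaled to the protein-coding total (0.048), in a single fit of 16 samples (0.047), with sample quality weights (0.0497) and without the intensity trend (0.031), and *Snhg20* without ZT13 LPS replicate 3 (0.027). Of the 8 members with snoRNA genes inside, 4 rose at ZT1 and 5 at ZT13, and no other was called. Of these, *Zfas1* and *AI506816*, which rose at both times, entered through their LPS samples. Without them, 2 of 6 rose at ZT1 and 3 at ZT13, with median log2 fold changes of 0.09 and 0.22, against 0.04 and 0.05 over all genes. *Snhg12*, still among the 6, had PBS mice on both sides of 10 CPM, so its place in the set leaned on its LPS samples too. Of the 19 tested genes among the 22 listed as snoRNA host RNAs, 7 of them among the 151, 4 rose (*Snhg11*, *Gas5*, *Zfas1* and *Snhg12*) at ZT1, and 7 rose at ZT13. The 7 at ZT13 were *Snhg11*, *Gas5*, *Zfas1*, *Snhg12*, *Epb41l4aos*, *Snhg14* and *Snhg8*, and the list's medians were 0.09 at ZT1 and 0.25 at ZT13. The most abundant of them, *Snhg11*, is annotated as protein-coding in the table and so is not a member. It rose from 1259.7 ± 20.6 to 1423 ± 71.9 CPM at ZT1 and from 1187 ± 16.8 to 1500.4 ± 91.4 at ZT13. Of the 8 tested genes among the 9 listed as proteins of the snoRNA particle, 1 rose (*Nop58*) at ZT1, and limma called 0 at ZT13 (1 at an unadjusted p under 0.05). The medians were 0.06 at ZT1 and 0.01 at ZT13. Of the 10 nonsense-mediated decay factors on the list, all tested, 1 fell (*Smg1*) at ZT1, and 2 rose (*Upf3b* and *Upf1*) at ZT13. With medians of 0.00 at ZT1 and 0.05 at ZT13, this list stayed near all genes. Of the 9 tested genes among the 10 listed as nuclear RNA decay factors, limma called 0 at ZT1 (2 at an unadjusted p under 0.05), and 3 rose (*Pabpn1*, *Zfc3h1* and *Rbm7*) at ZT13. Its medians were 0.08 at ZT1 and 0.14 at ZT13.

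For members with a RefSeq match, called or not, the promoter sequences were read from the RefSeq table (GRCm38.p6), a window of 300 bases around a RefSeq start, mostly upstream of it. It matched 78 of the 151 members and held 32817 promoters in all. For 65 of the 78 the nearest RefSeq start was within 1 kb of the member's own annotated start, and the shares below use these 65. Searched on both strands, the letters TATAAA occurred in 8 of 65 members (12.3%) and 13.6% of all promoters, CCAAT in 26 of 65 members (40.0%) and 37.4%, CACGTG in 7 of 65 members (10.8%) and 7.15%, TGACGTCA in 3 of 65 members (4.62%) and 1.79%, TTCCNGGAA in 0 of 65 members (0%) and 1.15%, and GGGGCGGGG in 11 of 65 members (16.9%) and 11.4%. No motif contains another, and a match describes letters only. 4 promoters are printed, those of a pair of snoRNA hosts, of a microRNA host and of *Meg3*, which all rose at ZT13, 5′ to 3′ on the plus strand with matched letters in capitals. *Zfas1* (chr2:167062684-167062983, 83.0% GC) held none of the 6, *Gas5* (chr1:161034351-161034650, 73.7% GC) GGGGCGGGG, *Mir9-3hg* (chr7:79499776-79500075, 75.0% GC) TGACGTCA and GGGGCGGGG, and *Meg3* (chr12:109540746-109541045, 53.7% GC) TATAAA on both strands, with CCAAT and TGACGTCA once each.
Zfas1: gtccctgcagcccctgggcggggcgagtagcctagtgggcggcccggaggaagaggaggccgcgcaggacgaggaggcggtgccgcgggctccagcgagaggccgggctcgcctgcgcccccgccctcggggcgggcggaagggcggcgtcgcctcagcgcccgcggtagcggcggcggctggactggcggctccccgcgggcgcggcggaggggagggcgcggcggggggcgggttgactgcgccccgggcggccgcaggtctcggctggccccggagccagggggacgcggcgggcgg
Gas5: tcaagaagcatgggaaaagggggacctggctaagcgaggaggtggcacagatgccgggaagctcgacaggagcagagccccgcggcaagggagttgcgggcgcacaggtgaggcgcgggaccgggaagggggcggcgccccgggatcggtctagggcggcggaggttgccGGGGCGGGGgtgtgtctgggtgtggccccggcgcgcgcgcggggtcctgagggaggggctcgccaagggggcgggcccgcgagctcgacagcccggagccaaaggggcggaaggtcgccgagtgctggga
Mir9-3hg: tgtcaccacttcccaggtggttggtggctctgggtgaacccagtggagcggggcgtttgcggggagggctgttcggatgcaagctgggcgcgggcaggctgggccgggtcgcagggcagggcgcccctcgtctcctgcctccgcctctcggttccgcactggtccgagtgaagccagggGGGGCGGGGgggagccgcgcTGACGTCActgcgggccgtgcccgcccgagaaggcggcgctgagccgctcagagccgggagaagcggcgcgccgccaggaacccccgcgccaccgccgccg
Meg3: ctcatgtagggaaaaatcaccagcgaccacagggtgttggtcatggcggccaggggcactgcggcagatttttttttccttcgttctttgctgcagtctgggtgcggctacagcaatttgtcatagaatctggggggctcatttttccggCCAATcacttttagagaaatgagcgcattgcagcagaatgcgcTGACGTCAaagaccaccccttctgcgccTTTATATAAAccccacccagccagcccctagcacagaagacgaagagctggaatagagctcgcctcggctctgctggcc

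MicroRNA hosts are cut in the nucleus to release hairpins, and 28 members contain microRNA genes. Of the 310 annotated small RNA genes inside members, snoRNA and microRNA, the highest was at 2.35 CPM and most were at 0. All 3 hosts of miR-9, a microRNA of neural progenitors and neurons, are members: *Gm3764* (chr3:88206813-88229959, Mir9-1), *C130071C03Rik* (chr13:83721381-83884194, Mir9-2) and *Mir9-3hg* (chr7:79500026-79534403, Mir9-3). *Mir9-3hg* measured 29.5, 29.1 and 26.7 CPM in the 3 ZT1 PBS mice, 42.9, 43.7, 35.0, 35.6 and 28.0 in the 5 ZT1 LPS mice, 30.2, 28.9 and 29.3 in the 3 ZT13 PBS mice and 46.1, 40.7, 36.2, 36.0 and 37.3 in the 5 ZT13 LPS mice. The ZT13 groups were separate, and ZT1 LPS replicate 5 lay among the ZT1 PBS mice. It rose at ZT13 by 0.40 (SE 0.07, limma adjusted p = 0.00091), and at ZT1 the change was 0.36 (SE 0.12, adjusted p = 0.071), which passed without ZT1 LPS replicate 5 (0.0049), in a single fit of 16 samples (0.026) and with sample quality weights (0.026). *Gm3764* stood at 64.6, 68.9 and 60.7 CPM in the 3 ZT1 PBS mice, 74.2, 58.5, 72.6, 67.9 and 65.8 in the 5 ZT1 LPS mice, 51.5, 52.5 and 56.9 in the 3 ZT13 PBS mice and 73.4, 70.6, 64.8, 76.4 and 77.9 in the 5 ZT13 LPS mice. Its ZT13 LPS mice were all above its ZT13 PBS mice, and the ZT1 groups overlapped. The rise at ZT13 was 0.43 (SE 0.06, limma adjusted p = 7.9e-05), against 0.06 (SE 0.07, adjusted p = 0.63) at ZT1, uncalled. *C130071C03Rik* went from 46.8 ± 0.295 to 53.4 ± 4.44 CPM at ZT13 with overlapping groups, 0.19 (SE 0.06, adjusted p = 0.040), and from 45.0 ± 2.36 to 51.7 ± 4.81 at ZT1, 0.19 (SE 0.08, adjusted p = 0.11). The ZT13 call of *C130071C03Rik* was lost without ZT13 PBS replicate 1, 2 or 3 (0.098, 0.11 and 0.091), without ZT13 LPS replicate 1, 2, 3 or 4 (0.082, 0.084, 0.056 and 0.090), with every gene that had any reads in the fit (0.17), under median-of-ratios scaling (0.14), under quantile normalization (0.12), in a single fit of 16 samples (0.072), without the intensity trend (0.11) and without the pair of libraries low in misc_RNA (0.15), and its ZT1 change passed without ZT1 LPS replicate 5 (0.0096).

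The RefSeq table held 92 mature sequences for 24 of the hosts, and 8 seeds (bases 2 to 8) occurred in more than 1 host. Examples of 3 shared seeds, between hosts or within 1, are shown in capitals. The mature miR-9-5p lies at chr3:88215613-88215635 in *Gm3764*, chr13:83738821-83738843 in *C130071C03Rik* and chr7:79505279-79505301 in *Mir9-3hg* (GRCm38.p6), with the same sequence at all 3 positions. *A330023F24Rik* carries miR-29b-3p (chr1:195037091-195037113) and miR-29c-3p (chr1:195037600-195037621), which share a seed. *Mir100hg* carries miR-100-5p (chr9:41531437-41531458) and *Mir99ahg* miR-99a-5p (chr16:77598940-77598961), again with a shared seed.
miR-9-5p: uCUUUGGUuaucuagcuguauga
miR-29b-3p: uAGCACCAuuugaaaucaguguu
miR-29c-3p: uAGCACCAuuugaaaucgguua
miR-100-5p: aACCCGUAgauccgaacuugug
miR-99a-5p: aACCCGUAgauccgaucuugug

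*A330023F24Rik* rose at ZT13 from 117 ± 13.2 to 138 ± 6.54 CPM, 0.24 (SE 0.06, limma adjusted p = 0.0088), a call lost without ZT13 PBS replicate 1 (0.054), with every gene that had any reads in the fit (0.095) and without the intensity trend (0.054). *Cd46*, which overlaps it on the opposite strand, rose by 0.33 at ZT1 and 0.27 at ZT13. The hosts of the neuronal miR-124 rose at ZT13: *Mir124a-1hg* from 210.3 ± 13.5 to 243 ± 16.7 CPM, 0.21 (SE 0.06, adjusted p = 0.012), and *Mir124-2hg* from 42.3 ± 3.99 to 50.6 ± 1.54 CPM, 0.26 (SE 0.06, adjusted p = 0.0033). The call of *Mir124a-1hg* was lost without ZT13 PBS replicate 1 or 2 (0.058 and 0.069), with every gene that had any reads in the fit (0.11) and without the intensity trend (0.069). At ZT1 their changes were 0.05 and 0.19, uncalled, though *Mir124-2hg* passed without ZT1 LPS replicate 5 (0.019). *Mir100hg* (79.7 to 96.0 CPM over the series), *Mir99ahg* (11.5 to 16.7), *Mir22hg* (9.85 to 16.9) and *Dleu2* (11.5 to 16.4), which hosts the miR-15/16 cluster, were uncalled at both times. Their changes at ZT13 were 0.06, 0.24, -0.03 and 0.06. *Mir99ahg* passed at ZT13 without ZT13 LPS replicate 3 or 5 (0.041 and 0.019), with the low filter set at 5 CPM (0.043), when scaled to the protein-coding total (0.045) and with sample quality weights (0.035), and *Mir100hg* at ZT1, as lower, without ZT1 LPS replicate 1 (0.043). Of the 11 tested genes among the 14 listed as microRNA host RNAs, 10 of them among the 151, limma called 0 at ZT1 (3 at an unadjusted p under 0.05), and 6 rose at ZT13. The 6 were *C130071C03Rik*, *A330023F24Rik*, *Mir9-3hg*, *Mirg*, *Mir124a-1hg* and *Mir124-2hg*, and the medians were 0.10 at ZT1 and 0.21 at ZT13. Over all 28 members with microRNA genes inside, 1 fell at ZT1 (7 at an unadjusted p under 0.05), and 12 rose and 1 fell at ZT13, with medians of 0.08 and 0.18, beside 19.2% higher and 9.40% lower of all genes at ZT13 and 11.1% and 5.15% at ZT1. Of the 8 microRNA processing factors on the list, all tested, 1 fell (*Ago2*) at ZT1, and 1 rose (*Dgcr8*) and 1 fell (*Ago2*) at ZT13. Of these, *Dgcr8* is the RNA-binding partner of Drosha and *Ago2* the slicing Argonaute, and the list's medians were 0.03 at ZT1 and 0.06 at ZT13.

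Among RNAs tied to the X chromosome, *Ftx*, a gene of the X inactivation centre, rose at ZT13 from 47.6 ± 2.78 to 56.6 ± 2.47 CPM, 0.25 (SE 0.05, limma adjusted p = 0.0021), and measured 0.14 at ZT1 (uncalled). *Firre*, an X-linked RNA that organises chromatin contacts, rose at ZT13 from 63.6 ± 2.63 to 74.4 ± 4.22 CPM, 0.22 (SE 0.05, adjusted p = 0.0041), and measured 0.14 at ZT1 (uncalled). Of the 3 tested genes among the 4 listed as X inactivation RNAs, 1 of them among the 151, limma called 0 at ZT1 (1 at an unadjusted p under 0.05), and 2 rose (*Ftx* and *Xist*) at ZT13. The medians were 0.14 at ZT1 and 0.25 at ZT13. *Xist* itself stayed between 0.312 and 1.502 CPM in these male mice. It reached 1 CPM, the low filter of the test, in LPS mice only, so its direction carries no weight. *Oip5os1*, also known as Cyrano, directs the decay of miR-7. It measured 365, 382 and 389 CPM in the 3 ZT1 PBS mice, 329.9, 324, 334, 372 and 348 in the 5 ZT1 LPS mice, 397, 376 and 384 in the 3 ZT13 PBS mice and 346, 330.1, 315, 332 and 309 in the 5 ZT13 LPS mice. All ZT13 LPS mice were below all ZT13 PBS mice, and the ZT1 groups overlapped. *Oip5os1* fell at ZT13, -0.24 (SE 0.04, limma adjusted p = 0.00036), and at ZT1 the change was -0.15 (SE 0.05, adjusted p = 0.052), which passed without ZT1 LPS replicate 4 or 5 (0.016 and 0.0499), with the low filter set at 5 CPM (0.046), under median-of-ratios scaling (0.022), when scaled to the protein-coding total (0.048), in a single fit of 16 samples (0.022) and with sample quality weights (0.038). *Cdr1os*, the precursor of the circular RNA that sponges miR-7, went from 949 ± 35.9 to 1149 ± 158 CPM at ZT13, 0.27 (SE 0.09, adjusted p = 0.036), and stood at 0.15 at ZT1 (uncalled). The ZT13 call of *Cdr1os* was lost without ZT13 PBS replicate 1, 2 or 3 (0.072, 0.073 and 0.13), without ZT13 LPS replicate 1, 2 or 4 (0.075, 0.076 and 0.080), with every gene that had any reads in the fit (0.24), under median-of-ratios scaling (0.082), in a single fit of 16 samples (0.12), without the intensity trend (0.13) and without the pair of libraries low in misc_RNA (0.22). *2900097C17Rik*, the mouse counterpart of the Pumilio-binding RNA NORAD, ranged only from 1376 to 1521 CPM, with changes of 0.03 and -0.01, uncalled except under quantile normalization (0.028) at ZT1. Of the 7 tested genes among the 10 listed as scaffold and housekeeping RNAs, 4 of them among the 151, limma called 0 at ZT1 (2 at an unadjusted p under 0.05), and 1 rose (*Firre*) and 1 fell (*Oip5os1*) at ZT13. The medians were 0.02 at ZT1 and 0.00 at ZT13.

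The next members are tied to neural lineages. *Sox2ot* (chr3:34104270-34682619) is a long transcript that holds the stem cell and glial gene *Sox2* in an intron. *Sox2ot* stood at 21.2, 20.8 and 22.7 CPM in the 3 ZT1 PBS mice, 15.1, 12.5, 17.3, 16.9 and 18.6 in the 5 ZT1 LPS mice, 19.7, 17.2 and 18.3 in the 3 ZT13 PBS mice and 15.7, 18.4, 12.8, 15.7 and 16.1 in the 5 ZT13 LPS mice. At ZT1 all LPS mice were below all PBS mice, and at ZT13 the groups overlapped. It fell at ZT1, -0.43 (SE 0.11, limma adjusted p = 0.023), and at ZT13 the change was -0.23 (SE 0.10, adjusted p = 0.099), uncalled. The ZT1 call was lost without ZT1 PBS replicate 1, 2 or 3 (0.075, 0.061 and 0.10), with every gene that had any reads in the fit (0.13) and without the intensity trend (0.058), and the ZT13 change passed without ZT13 LPS replicate 2 (0.034), under median-of-ratios scaling (0.036) and under quantile normalization (0.017). *Sox2* itself measured 0.12 at ZT1 (uncalled) and rose by 0.55 at ZT13 (limma adjusted p = 0.00014). *Sox1ot*, in turn, spans *Sox1* on the same strand. *Sox1ot* measured 13.1, 11.7 and 12.5 (ZT1 PBS), 11.5, 9.11, 10.2, 11.5 and 10.9 (ZT1 LPS), 12.9, 13.5 and 12.4 (ZT13 PBS) and 11.3, 11.5, 10.02, 9.81 and 9.79 CPM (ZT13 LPS). Its ZT13 groups did not overlap. *Sox1ot* fell at ZT13, -0.29 (SE 0.08, limma adjusted p = 0.015), a call lost without ZT13 PBS replicate 2 (0.072), and measured -0.22 (SE 0.09, adjusted p = 0.14) at ZT1, which passed under quantile normalization (0.027). *Sox1* rose by 0.29 at ZT1 and 0.43 at ZT13 (adjusted p = 0.042 and 0.00026).

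*Dlx6os1*, an interneuron transcript, ranged from 10.6 to 18.3 CPM with changes of -0.30 and -0.22, and *Pantr1* from 9.24 to 14.2 CPM with -0.15 and -0.21, all uncalled. Under quantile normalization *Dlx6os1* passed as lower at both times (adjusted p = 0.030 and 0.018) and *Pantr1* at ZT13 (0.015). At ZT13 *Dlx6os1* also passed under median-of-ratios scaling (0.046) and without ZT13 LPS replicate 4 (0.042), and *Pantr1* without ZT13 LPS replicate 5 (0.036). *Rmst* lay between 12.3 and 16.5 CPM, with -0.02 and 0.09, uncalled. *Bc1*, a short dendritic RNA transcribed by RNA polymerase III that represses translation, varied widely. It measured 41.9, 135 and 245 (ZT1 PBS), 226, 127, 155, 138 and 38.9 (ZT1 LPS), 250.4, 162 and 109 (ZT13 PBS) and 248, 173, 106, 214 and 88.4 CPM (ZT13 LPS). The SD inside each group was above the difference between any 2 group means, and neither LPS comparison passed. Of the 9 tested genes among the 10 listed as neural lineage RNAs, 7 of them among the 151, 1 fell (*Sox2ot*) at ZT1, and 1 rose (*Miat*) and 2 fell (*Sox1ot* and *Dlx1as*) at ZT13. Its medians, -0.15 at ZT1 and -0.21 at ZT13, were below those of all genes.

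The next 3 members are on none of the gene lists. *Ifi30*, which encodes the lysosomal thiol reductase GILT in the RefSeq annotation but carries a noncoding type in the table, measured 1.63, 1.63 and 1.22 CPM in the 3 ZT1 PBS mice, 19.9, 7.56, 12.5, 17.3 and 13.2 in the 5 ZT1 LPS mice, 1.25, 1.67 and 1.21 in the 3 ZT13 PBS mice and 17.5, 17.5, 19.96, 16.9 and 15.8 in the 5 ZT13 LPS mice. It was near 1 CPM in every PBS mouse and many times higher in every LPS mouse. The log2 fold change was 2.81 (SE 0.24, limma adjusted p = 2.2e-05) at ZT1 and 3.27 (SE 0.11, adjusted p = 1.1e-10) at ZT13. *AI506816* (chr5:23698296-23712667, minus strand), a transcript with 1 snoRNA gene inside, stood at 3.40, 3.31 and 2.62 CPM in the 3 ZT1 PBS mice, 15.1, 11.8, 11.5, 12.2 and 12.4 in the 5 ZT1 LPS mice, 3.25, 3.24 and 2.98 in the 3 ZT13 PBS mice and 15.6, 18.7, 16.4, 18.8 and 16.99 in the 5 ZT13 LPS mice. The groups were far apart at both times, and ZT1 LPS replicate 1 was the highest of its group. It rose by 1.86 (SE 0.11, limma adjusted p = 1.9e-06) at ZT1 and 2.28 (SE 0.09, adjusted p = 4.3e-10) at ZT13. *Ifi30* and *AI506816* belong to the 8 members that entered through their LPS samples, so their rise was partly set by the choice of members. *Gm43305* (chr14:54292443-54297456, minus strand) was above 10 CPM in PBS mice already, at 18.2, 18.7 and 21.2 CPM in the 3 ZT1 PBS mice, 31.7, 30.4, 29.1, 37.7 and 25.5 in the 5 ZT1 LPS mice, 14.6, 23.0 and 19.7 in the 3 ZT13 PBS mice and 39.4, 48.4, 35.2, 41.1 and 36.2 in the 5 ZT13 LPS mice. Here too the LPS mice were above the PBS mice throughout. *Gm43305* rose by 0.65 (SE 0.11, limma adjusted p = 0.0018) and 1.07 (SE 0.12, adjusted p = 2.0e-05) at ZT1 and ZT13. The calls of all 3 genes held in each setting that used the titles.

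*Gm28967* rose at ZT13 from 30.1 ± 4.73 to 48.0 ± 5.80 CPM, 0.66 (SE 0.10, limma adjusted p = 0.00022), and measured 0.0045 at ZT1 (uncalled). It shares exon sequence with *Ncapd2* on the same strand, which rose by 0.31 at ZT1 and 0.29 at ZT13. *Gm15624* went from 8.64 ± 0.386 to 11.1 ± 1.26 CPM at ZT1, 0.34 (SE 0.10, adjusted p = 0.037), and rose by 0.38 (SE 0.10, adjusted p = 0.014) at ZT13, and its entry through LPS samples gives the direction no weight. Its ZT1 call was lost without ZT1 PBS replicate 1, 2 or 3 (0.081, 0.10 and 0.13), without ZT1 LPS replicate 1, 2, 3 or 4 (0.071, 0.055, 0.055 and 0.053), with every gene that had any reads in the fit (0.10), under median-of-ratios scaling (0.055), under quantile normalization (0.14) and without the intensity trend (0.052), and its ZT13 call without ZT13 PBS replicate 2 (0.082), with every gene that had any reads in the fit (0.078), under quantile normalization (0.15) and without the pair of libraries low in misc_RNA (0.066). *Lncpint*, a p53-induced RNA, ranged from 57.2 to 87.4 CPM with changes of 0.21 and 0.09, uncalled, but passed at ZT1 without ZT1 LPS replicate 3 (0.047) and at ZT13 without ZT13 PBS replicate 3 (0.044). Of the 8 tested genes among the 16 listed as immune and stress RNAs, 2 of them among the 151, 2 rose (*AW112010* and *F630028O10Rik*) at ZT1, and 3 rose (*AW112010*, *F630028O10Rik* and *Mirt1*) at ZT13. Its medians were 0.14 at ZT1 and 0.28 at ZT13. None of these was abundant: *AW112010*, an interferon-responsive transcript of immune cells, went from 0.230 to 2.15 CPM at ZT1 and from 0.0837 to 2.44 at ZT13. *AW112010* needed LPS mice to pass the low filter of the test, so its direction carries no weight. Fold changes are on the log2(CPM + 0.5) scale, which understates the change of such low genes.

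Members with called decreases follow. *6530402F18Rik* measured 34.4, 33.9 and 34.8 CPM in the 3 ZT1 PBS mice, 26.6, 23.1, 25.0, 27.2 and 28.5 in the 5 ZT1 LPS mice, 32.5, 27.5 and 31.8 in the 3 ZT13 PBS mice and 27.7, 25.5, 26.8, 28.4 and 28.4 in the 5 ZT13 LPS mice. All ZT1 LPS mice were below all ZT1 PBS mice. It fell at ZT1, -0.39 (SE 0.07, limma adjusted p = 0.0026), and measured -0.16 (SE 0.06, adjusted p = 0.088) at ZT13, passing without ZT13 PBS replicate 2 (0.019), under median-of-ratios scaling (0.017) and under quantile normalization (0.018). It overlaps *Ntng2*, a synaptic adhesion gene, on the same strand and by exon, and *Ntng2* fell by 0.45 and 0.41 on the log2 scale at ZT1 and ZT13, so the source of these reads is uncertain. *Dbpht2*, clear of other genes, stood at 73.2, 83.1 and 83.1 CPM in the 3 ZT1 PBS mice, 67.3, 58.5, 65.5, 64.7 and 68.6 in the 5 ZT1 LPS mice, 81.1, 82.5 and 81.2 in the 3 ZT13 PBS mice and 69.3, 58.3, 60.3, 60.4 and 60.6 in the 5 ZT13 LPS mice. Its groups were separate at both times. Its log2 fold change was -0.30 (SE 0.06, limma adjusted p = 0.0079) and -0.40 (SE 0.05, adjusted p = 5.2e-05) at ZT1 and ZT13, with the ZT1 call lost without ZT1 PBS replicate 3 (0.051) and with every gene that had any reads in the fit (0.058). *B230209E15Rik* fell at both times too, with -0.31 (SE 0.08, adjusted p = 0.020) and -0.31 (SE 0.07, adjusted p = 0.0027), and the ZT1 call was lost without ZT1 PBS replicate 2 or 3 (0.070 and 0.096) and with every gene that had any reads in the fit (0.074).

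At ZT1 the other large decreases were those of *Gm1604a*, from 13.01 ± 0.755 to 9.67 ± 0.876 CPM (-0.41, SE 0.09, limma adjusted p = 0.0097), and of *Gm37814* and *Gm37107*, both inside *Frmd4a*, at -0.32 and -0.31 (adjusted p = 0.020 and 0.024). Only in the ZT1 PBS group did *Gm1604a* average 10 CPM or more, so its entry rested on that group and its fall at ZT1 carries no weight. The call of *Gm1604a* was lost without ZT1 PBS replicate 2 (0.053), that of *Gm37814* without ZT1 PBS replicate 1, 2 or 3 (0.065, 0.069 and 0.081) and with every gene that had any reads in the fit (0.070), and that of *Gm37107* without ZT1 PBS replicate 2 or 3 (0.081 and 0.12) and without ZT1 LPS replicate 4 (0.054). *Gm1604a* had fewer CPM in ZT13 PBS than in ZT1 PBS mice (9.82 against 13.01), and its ZT13 LPS change was 0.00 (uncalled). At ZT13, *Gm12940* fell from 12.1 ± 0.651 to 8.17 ± 0.963 CPM (-0.54, SE 0.10, limma adjusted p = 0.00082), *C030017B01Rik* from 32.5 ± 0.954 to 23.7 ± 2.70 (-0.45, SE 0.08, adjusted p = 0.00063) and *AC156546.1* from 12.8 ± 0.282 to 9.96 ± 0.679 (-0.35, SE 0.08, adjusted p = 0.0038). In ZT13 LPS mice *Gm12940* and *AC156546.1* averaged below 10 CPM, so both depended on other samples for membership and their direction carries little weight. *Gm12940* shares exon sequence with the paraspeckle gene *Sfpq*, which was uncalled at -0.04 and 0.04. At ZT1 these 3 were uncalled, at -0.35, -0.23 and -0.12, but *Gm12940* passed without ZT1 LPS replicate 5 (0.016) and *C030017B01Rik* without ZT1 LPS replicate 2 (0.0077), with the low filter set at 5 CPM (0.044), under median-of-ratios scaling (0.034), under quantile normalization (0.033), in a single fit of 16 samples (0.049) and with sample quality weights (0.014). Near the entry level, *Gm4673* was called higher at ZT13 (0.31, SE 0.08, adjusted p = 0.010), a call lost without ZT13 PBS replicate 3 (0.057), under quantile normalization (0.22) and without the pair of libraries low in misc_RNA (0.088), and *Gm41609* (0.08) and *4933423P22Rik* (0.27) were uncalled, the latter passing without ZT13 LPS replicate 3 (0.029).

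Cell type markers moved with LPS as well, and they too cannot separate cell number from RNA per cell. Of 9 microglial markers, 8 rose and 1 fell at both times (medians 0.72 and 0.85), and the 1 that fell was *P2ry12*. Their summed level was 243, 219.8 and 227 CPM in ZT1 PBS, 508, 341, 461, 546 and 477 in ZT1 LPS, 236, 222 and 225 in ZT13 PBS and 507, 516, 485, 478 and 490.0 in ZT13 LPS mice. Each LPS mouse was above each PBS mouse, *Csf1r* was the most abundant marker, and none was at 0. Of 8 endothelial markers, 6 rose and 1 (*Flt1*) fell at ZT1 and all 8 rose at ZT13, with medians of 0.83 and 1.28. The sum over them was 214, 215 and 218 CPM in ZT1 PBS, 377, 310.4, 349, 387 and 315 in ZT1 LPS, 188, 195 and 229 in ZT13 PBS and 376, 418, 403, 381 and 416 in ZT13 LPS mice. LPS and PBS mice were again separate, with *Slc2a1* the most abundant and no marker at 0. Of 8 astrocyte markers, 4 rose at ZT1, and 4 rose and 1 fell at ZT13, with medians of 0.24 and 0.26. Summed, they gave 5189.9, 5174 and 5358 CPM in ZT1 PBS, 6002, 5649, 5843, 6193 and 5933 in ZT1 LPS, 5247, 5618 and 5424 in ZT13 PBS and 6497, 6122, 6152, 6059 and 5954 in ZT13 LPS mice. *Slc1a2* was the most abundant and the 1 that fell at ZT13. LPS and PBS mice did not overlap in the sum. *Gfap* rose by 2.64 and 3.09, from 111 to 123 CPM in PBS to 572 to 1134 in LPS mice. Much of the rise of the sum was thus *Gfap*, and the sum does not show that the markers rose as a set.

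Neuronal markers went the other way: 3 of 10 fell at ZT1 and 6 at ZT13, with no other called, and medians of -0.09 and -0.12. Their sum was 6910.0, 6855 and 7035 CPM in ZT1 PBS, 6366, 6533, 6699, 6636 and 6523 in ZT1 LPS, 6949.8, 7242 and 7111 in ZT13 PBS and 6624, 6437, 6389, 6309.9 and 6257 in ZT13 LPS mice. The LPS mice were below the PBS mice of their time, and *Syt1* was the most abundant marker. Of 9 oligodendrocyte markers, 1 rose and 2 fell at ZT1, and 1 rose and 5 fell at ZT13 (medians -0.17 and -0.26). They summed to 2972, 2573 and 2977 CPM in ZT1 PBS, 2639, 2649, 2667, 2875 and 2416 in ZT1 LPS, 3176, 3024 and 2929 in ZT13 PBS and 2684, 2693, 2586, 2516 and 2654 in ZT13 LPS mice. *Mbp* dominated this sum, and the groups overlapped at ZT1 and were separate at ZT13. Neutrophil markers were near 0 in PBS mice, and of the 3 that could be tested of 7, 2 rose at ZT1 and 3 at ZT13, with medians of 2.87 and 4.57. All 3 needed LPS mice to pass the low filter of the test, so their direction carries no weight. The summed level of the 7 neutrophil markers was 1.43, 0.988 and 0.800 CPM in ZT1 PBS, 38.7, 7.61, 15.9, 33.1 and 7.70 in ZT1 LPS, 0.455, 1.20 and 0.672 in ZT13 PBS and 44.2, 38.4, 66.4, 67.9 and 24.2 in ZT13 LPS mice. *S100a9* made up most of it in LPS mice, and the granule gene *Elane* was at 0 in all but 2 libraries and *Ly6g* in all 6 PBS and 4 of the LPS libraries. Of 7 mural cell markers, 2 rose at ZT1 and 3 at ZT13 (medians 0.01 and 0.30), and of 5 choroid plexus markers limma called 0 at ZT1 (1 at an unadjusted p under 0.05) and 1, *Aqp1*, higher at ZT13, with medians of 0.77 and -0.61. The choroid plexus markers summed to 12.1, 914 and 19.4 CPM in ZT1 PBS, 860.2, 15.3, 413, 19.9 and 558 in ZT1 LPS, 967, 14.2 and 547 in ZT13 PBS and 235, 35.2, 162, 198 and 587 in ZT13 LPS mice. *Ttr* was the most abundant of these, and libraries of the same group stood far apart. No erythrocyte marker of 5 passed at either time by limma (0 at an unadjusted p under 0.05), with medians of -0.01 and 0.08. The part of these shifts in the changes of the members was not tested.

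The second question was whether the levels differed between ZT13 and ZT1. In PBS mice 1 member was higher and 1 lower at ZT13, that is 1.32% of the 151, beside 0.520% of all tested genes (0.302% higher, 0.217% lower), and 31 members (20.53%) had an unadjusted p under 0.05, beside 13.5% of all tested genes. *Rmrp*, the RNA of the RNase MRP complex, measured 135, 155 and 141 CPM in ZT1 PBS and 112, 103 and 87.2 in ZT13 PBS mice, and 166, 123, 146, 121 and 102 and 93.2, 142, 114, 126 and 109.7 in ZT1 and ZT13 LPS mice. The PBS groups did not overlap, and the LPS mice of both times lay across both. Its log2 change from ZT1 to ZT13 was -0.52 (SE 0.08, limma adjusted p = 0.039) in PBS mice and -0.16 (SE 0.12, adjusted p = 0.73) in LPS mice, uncalled in the latter. The same transcript is annotated again as a ribozyme gene at 698 CPM, against 123 for this entry, so the level of this entry is uncertain. *Cep83os* went from 15.9, 15.98 and 16.7 CPM in ZT1 PBS to 22.1, 20.4 and 20.7 CPM in ZT13 PBS mice. These PBS groups too were separate. The change was 0.37 (SE 0.06, limma adjusted p = 0.045). Both rested on few mice: the call of *Rmrp* was lost without ZT1 PBS replicate 1, 2 or 3 (0.097, 0.14 and 0.14), without ZT13 PBS replicate 2 (0.15), with every gene that had any reads in the fit (0.33), in a single fit of 16 samples (0.20) and without the intensity trend (0.24), and that of *Cep83os* without ZT1 PBS replicate 1, 2 or 3 (0.14, 0.17 and 0.14), without ZT13 PBS replicate 1, 2 or 3 (0.15, 0.15 and 0.077), with every gene that had any reads in the fit (0.12), in a single fit of 16 samples (0.27) and without the intensity trend (0.17). Against PBS, *Rmrp* in LPS mice was uncalled at -0.15 at ZT1 and 0.21 at ZT13, and passed at ZT13 without ZT13 LPS replicate 1 (0.038).

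In LPS mice limma called 0 of the 151 members between ZT13 and ZT1, with 15 (9.93%) at an unadjusted p under 0.05, beside 0.0212% and 10.6% of all tested genes. The 4 genes called among all tested became 345 without ZT1 LPS replicate 1, 225 with sample quality weights and 122 in a single fit of 16 samples. The lowest p-values belonged to *AI506816* (0.45, SE 0.08, adjusted p = 0.080), *Gm43305* (0.37, SE 0.10, adjusted p = 0.18) and *Neat1* (0.34, SE 0.10, adjusted p = 0.19), all uncalled. For *Neat1*, 156 ± 21.6 CPM at ZT1 stood against 198 ± 26.3 at ZT13, with overlapping mice. *AI506816* passed without ZT1 LPS replicate 1 (0.010), in a single fit of 16 samples (0.031) and with sample quality weights (0.018), and *Neat1* without ZT1 LPS replicate 1 (0.031) and with sample quality weights (0.040). Whether the response to LPS itself differed between the times was put to a direct test of the difference between the 2 responses (the interaction), which shares its samples with the comparisons above. It called 0 members by limma, with 20 (13.2%) at an unadjusted p under 0.05, beside 0.159% and 9.25% of all tested genes. The lowest p-values were those of *Gm3764*, *Neat1* and *AI506816*, with differences of 0.37 (SE 0.10, adjusted p = 0.20), 0.45 (SE 0.14, adjusted p = 0.29) and 0.42 (SE 0.14, adjusted p = 0.32), none called. The 95% interval of the difference ran from 0.15 to 0.74 for *Neat1* and from 0.16 to 0.58 for *Gm3764*, before any adjustment for the number of genes. Of the gene lists, calls in these comparisons were limited to *Rmrp* among the scaffold RNAs in PBS mice and to the endothelial markers, where *Slc2a1* was higher and *Flt1* and *Cldn5* were lower at ZT13 in PBS mice, and *Pecam1*, *Cdh5* and *Cldn5* had a larger LPS response at ZT13. The interaction was also called for *Flt1*, which fell after LPS at ZT1 and rose at ZT13. Between the times in LPS mice limma called 0 endothelial markers (3 at an unadjusted p under 0.05).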

How the data were processed

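Cortex RNA of 16 mice was measured in 4 groups. The authors deposited 1 table of CPM values, gene reads scaled to 1 common library total; per their processing notes, reads were handled with bcl2fastq and DRAGEN 4.0.3-8 against GRCm38. Of 55774 table lines, 287 repeats of a gene ID were dropped. The step between low CPM values gave 20251840 to 29112760 gene-assigned reads per library (median 22459624), but only 80.7% to 82.6% of low values (up to 20 reads) came out within 0.01 of a whole number, so no count model was used.

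The test covered genes that reached 1 CPM in 3 or more of the 16 samples (18859, among them 1739 of the 9954 candidates and all 151 members). It used limma 3.58.1 (R 4.3.3) on log2(CPM + 0.5), with an intensity trend, Benjamini-Hochberg adjustment over all of them and calls at an adjusted p under 0.05. Fold changes on this scale understate those of low genes. Pairwise fits used the groups compared and the interaction all 16 samples. Other steps ran in Python 3.11.15 (matplotlib 3.10.9, numpy 2.4.6, pandas 2.3.3), and the fit was tested on simulated data. Named were the 10 members highest in mean CPM, members on the noncoding RNA lists, the 6 called members of largest increase and of largest decrease with separate groups in each LPS comparison, the 3 of lowest p or largest change in the other comparisons, and the 3 genes on each side of the entry level. Overlapping genes and low listed genes given by name were chosen after their values were seen. The members and lists were chosen with earlier results of these data known. Alternatives covered pseudocount, filter, scaling, fit, weights, trend, pairing, the treatment field, single mice, membership and, chosen after seeing the data, the pair of libraries low in misc_RNA.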

Additional observations from a re-analysis of the deposited data

Results flagged for a closer look

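The levels of the named members, and the share of reads on all members, were searched, within each group of 5 LPS mice, for a mouse far from the other 4, measured as its gap to the nearest mouse divided by the range of the group. Such a mouse was found in 10 of 114 groups, where chance alone marks about 1 in 20 of independent groups. The groups here hold the same LPS mice again and again, so that rate is only a guide and no excess was tested. *2900097C17Rik* was highest in ZT1 LPS replicate 2, at 1491 CPM against 1412 to 1435 in the other 4 (ratio 0.718). In ZT13 LPS, replicate 1 had the highest *2900097C17Rik*, 1521 CPM beside 1384 to 1407 (ratio 0.833). *Rian* was lowest in ZT1 LPS replicate 2, at 618 CPM against 667 to 685 in the other 4 (ratio 0.730). In ZT13 LPS, replicate 3 had the lowest *Kcnq1ot1*, 309 CPM beside 358 to 378 (ratio 0.713). *Dbpht2* was highest in ZT13 LPS replicate 1, at 69.3 CPM against 58.3 to 60.6 in the other 4 (ratio 0.791). In ZT1 LPS, replicate 1 had the highest *B830012L14Rik*, 67.1 CPM beside 57.9 to 59.8 (ratio 0.794). *Gas5* was lowest in ZT13 LPS replicate 2, at 42.1 CPM against 47.8 to 49.9 in the other 4 (ratio 0.738). In ZT13 LPS, replicate 3 had the lowest *Gm37814*, 15.1 CPM beside 16.2 to 16.6 (ratio 0.715). *Zfas1* was lowest in ZT13 LPS replicate 2, at 15.3 CPM against 16.5 to 16.8 in the other 4 (ratio 0.825). In ZT1 LPS, replicate 1 had the highest *AI506816*, 15.1 CPM beside 11.5 to 12.4 (ratio 0.754).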

How the results depend on the processing

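The count of 19 members called at ZT1 became 8 with every gene with any reads tested, 33 and 8 with an entry level of 5 and 20 CPM, and 6 over members clear of other genes, and ranged from 8 to 31 as single mice were left out. The 52 at ZT13 became 33, 81, 32 and 20 in the same settings, ranged from 41 to 56, and were 35 without the pair of libraries low in misc_RNA. Over all tested genes the called share moved as well. At ZT1 it went from 16.2% to 4.16% with every gene with any reads, and ranged from 9.37% to 19.9% without single mice. At ZT13 it went from 28.6% to 11.2%, ranged from 23.0% to 29.4%, and was 21.9% without that pair. The 0 between times in LPS mice (limma, 15 at an unadjusted p under 0.05) became 1 in a single fit and 2 with sample weights and ranged from 0 to 2. The 2 in PBS mice became 0 with every gene with any reads, in a single fit and without the intensity trend (26, 19 and 21 unadjusted), 3 under quantile normalization, 1 at 20 CPM, 0 over members clear of other genes (7 unadjusted), 1 without the pair of libraries, and 0 to 2 without single mice. Of all tested genes, 0.520% became 0.169% with any reads, 0.228% in a single fit, 0.0159% without the trend and 1.06% under quantile normalization. The interaction gave 0 by limma in each setting run, with 6 to 33 unadjusted. The entry levels and the members clear of other genes change how many members are counted (348, 70 and 40), and for the other settings the cause was not tested. Deviations of same-numbered mice correlated between -0.20 and 0.33 over 20 pairs. Differently numbered mice were not set beside them, so these values cannot tell whether the numbers pair the mice. With the replicate block, 18 were called at ZT1, 48 at ZT13, 2 between times in PBS mice (0 higher and 2 lower, against 1 and 1 without it), and 0 in LPS mice and in the interaction (18 and 21 unadjusted). With groups from the treatment field, limma called 0 at ZT1, 0 at ZT13 and 1 between times in PBS mice (10, 20 and 28 unadjusted), and the named members called by title between LPS and PBS turned direction, except *Cdr1os* at ZT13, which lost its call. Between times in PBS mice, *Rmrp* and *Cep83os* lost theirs under that field and *AI506816* gained one. At ZT1 the log2 values under that field were -0.0429 (*Malat1*), -0.24 (*Neat1*), 0.13 (*Dbpht2*), -0.14 (*Gas5*), -0.37 (*Gm43305*), 0.17 (*6530402F18Rik*), 0.13 (*B230209E15Rik*), 0.0344 (*Sox2ot*), 0.22 (*Gm37814*), -0.15 (*Zfas1*), -0.19 (*Snhg12*), 0.15 (*Gm37107*), -1.02 (*AI506816*), -1.81 (*Ifi30*), 0.18 (*Gm1604a*) and -0.0299 (*Gm15624*). At ZT13 the log2 values under that field were -0.11 (*Malat1*), -0.0884 (*Meg3*), -0.0654 (*Snhg14*), -0.11 (*Miat*), 0.20 (*Oip5os1*), -0.16 (*Mir124a-1hg*), -0.79 (*Neat1*), -0.18 (*A330023F24Rik*), 0.29 (*Dbpht2*), -0.0740 (*Firre*), -0.27 (*Gm3764*), -0.0998 (*Mirg*), -0.17 (*Ftx*), -0.0366 (*C130071C03Rik*), -0.12 (*Mir124-2hg*), -0.29 (*Gas5*), -0.51 (*Gm28967*), -0.0859 (*Mir9-3hg*), -0.50 (*Gm43305*), 0.41 (*C030017B01Rik*), 0.22 (*B230209E15Rik*), -0.48 (*Zfas1*), -0.42 (*Snhg12*), 0.24 (*AC156546.1*), 0.30 (*Sox1ot*), 0.43 (*Gm12940*), -1.38 (*AI506816*), -1.96 (*Ifi30*), -0.28 (*Gm15624*) and -0.17 (*Gm4673*). Of the values of named members in all other settings, 5755 kept their side of the threshold without a reversal, 66 gained a call and 115 lost one. Most of these values were uncalled in the main fit, so the tally says little about how often calls were kept.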
